A study of Mus musculus with 2 samples.

Results

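Nuclei with transcripts of the dopamine D3 receptor gene Drd3, alone or together with the LIM homeobox gene Isl1, were picked from 2 single-nucleus libraries of mouse tissue labelled hippocampus. A nucleus was taken when it held at least 2 Drd3 UMIs (unique molecular identifiers, each standing for 1 captured RNA molecule), or at least 1 Drd3 UMI together with at least 1 Isl1 UMI. The rule found 177 of 25957 nuclei: 130 of 13429 in the knockdown-labelled and 47 of 12528 in the control library. It uses measured values of these nuclei, so the levels of Drd3 and Isl1 below describe the choice and support nothing.

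Both libraries came from Bcas2F/F mice, in which the Bcas2 gene is floxed. For the first library the title names injection of an adeno-associated virus, AAV2/9-Syn-cre, which carries Cre under a synapsin promoter, active in neurons, and the genotype label reads Bcas2 knockdown. For the control library the title names injection of an AAV-vehicle into Bcas2F/F mice, while the genotype label reads WT, so its own labels differ on the genotype. Bcas2 encodes a component of the Prp19 complex of the spliceosome. Dounced nuclei were stained with propidium iodide, freed of debris in a flow sorter and run on the 10x 3' V3 kit for an expected 8000 nuclei, against 16693 and 12621 barcodes in the files. The sources used here do not give the number, age or sex of the mice, the injected site or the dissection. With 1 library per group no difference between libraries has a replicate check. No p-value is given, and every interval below is an exact 95% interval that covers counting error only.

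The islands of Calleja are dense groups of small granule neurons in the ventral striatum, chiefly in the olfactory tubercle. Their granule cells are GABAergic, come from the same embryonic lineage as striatal projection neurons, and are known for strong expression of Drd3, often with Drd1. D3 receptors couple to inhibitory G proteins, D1 receptors to the stimulatory G protein of the striatum, and adenylyl cyclase 5 makes the cAMP that both act on. The islands lie in the basal forebrain and not in the hippocampus.

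Nuclei passing the gate made up 0.968% (0.809 to 1.15) of the kept nuclei in the knockdown-labelled and 0.375% (0.276 to 0.499) in the control library. In the first, 88 nuclei qualified with at least 2 Drd3 UMIs and 42 with exactly 1 Drd3 UMI and Isl1. In the second these numbers were 32 and 15. Most members sat near the threshold: 52 of 130 and 17 of 47 held exactly 2 Drd3 UMIs, the median was 2 Drd3 UMIs in each library, and the highest counts were 18 and 6. Just outside stood 72 and 25 nuclei with 1 Drd3 UMI and no Isl1. Isl1 without Drd3 occurred in 420 nuclei of the knockdown-labelled library, 266 of them in the Zic cluster described below, and in 27 of the control library. In nuclei of the oligodendrocyte-marker clusters, which should lack Drd3, 1 of 2089 and 0 of 7657 passed the gate, the latter allowing a share of up to 0.0392%. Those nuclei were shallower, with medians of 1969 and 2342 UMIs against 7393 and 4546 in the members.

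Depth moved with the share. The median over all kept nuclei was 6094 UMIs in the knockdown-labelled and 2577 in the control library. When every nucleus was thinned to 1000 UMIs and the gate applied again, 14 of 13004 nuclei (0.108%, 0.0589 to 0.181) and 9 of 12491 (0.0721%, 0.0330 to 0.137) passed, and these intervals overlap. Oligodendrocyte-marker nuclei made up 15.6% of the first library and 61.1% of the second, and the share of members among the remaining nuclei was not computed. The libraries shared 45 cell barcodes among kept nuclei, none of them a member in both.

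The members were not a single kind of nucleus. Nuclei of the 2 libraries were clustered together with Drd3, Isl1, Drd1 and Bcas2 left out of the clustering genes, and 130 of the 177 members fell into 1 of the 33 clusters, which was split into 6 subclusters. Of these subclusters 3 carried islands of Calleja markers, Drd3 and Isl1 among them, and are called Calleja-like here. Another pair carried the markers of striatal projection neurons. Calleja-like subclusters held 61 of the 130 members in the knockdown-labelled (46.9%) and 42 of the 47 in the control library (89.4%). Striatal-like subclusters held 26 and 1 members. A cluster marked by the transcription factor genes Zic1, Zic4 and Prdm16, a set used here for septal-type GABAergic neurons, held 34 and 0. The remaining 9 and 4 members were spread over other clusters.

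**Figure D1:**
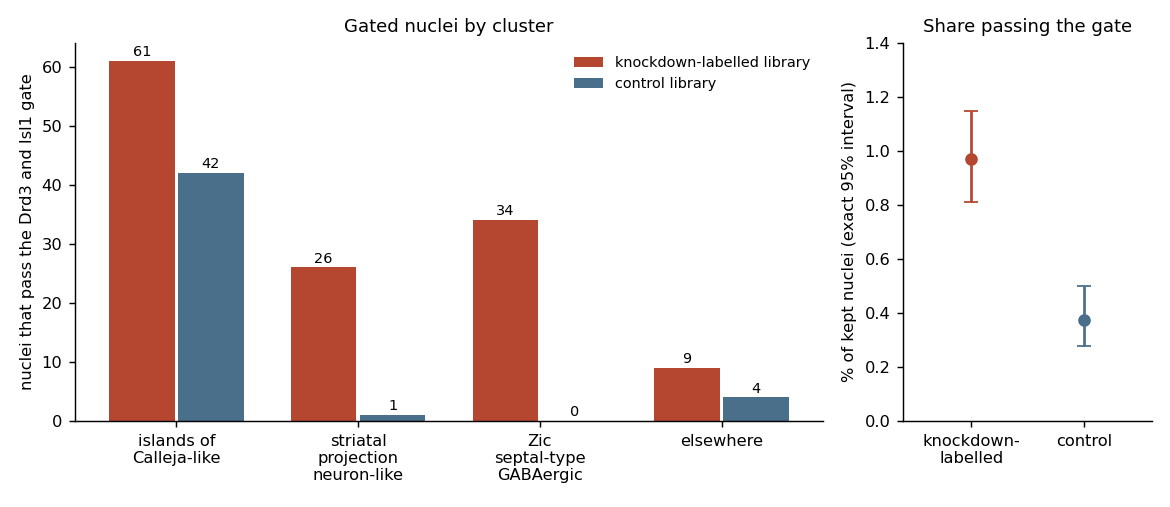
The left panel counts nuclei passing the Drd3 and Isl1 gate by the kind of cluster they fell into, in the knockdown-labelled (red) and the control library (blue), and the right panel gives their share of kept nuclei with the exact 95% interval. The Calleja-like bars stand at 61 and 42 nuclei, while the striatal-like and Zic bars stand at 26 and 34 in the knockdown-labelled and at 1 and 0 in the control library.

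Seen from the clusters, the gate took 61 of 92 Calleja-like nuclei (66.3%) in the knockdown-labelled and 42 of 57 (73.7%) in the control library. These subclusters were named with a marker list that includes Drd3 and Isl1, so high shares there were built in and support nothing. The gate took 26 of 176 striatal-like nuclei (14.8%) and 34 of 1245 Zic nuclei (2.73%) of the knockdown-labelled library. In the control library those clusters held 11 and 70 nuclei, of which 1 and 0 passed, the latter allowing a share of up to 4.29%. The Calleja-like members were the shallow ones in the knockdown-labelled library, at a median of 3297 UMIs, against 9406 in the striatal-like and 10653.5 in the Zic members. In the control library the Calleja-like median was 3999 UMIs. Restricted to Calleja-like members, the shares of kept nuclei were 0.454% (0.348 to 0.583) and 0.335% (0.242 to 0.453), and these intervals overlap.

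The label was checked against 5 marker genes, Drd3, Isl1, Drd1, Folh1 and Rxfp1. Levels are given as CPM, a gene's UMIs per 1000000 UMIs summed over the nuclei of a set. In Calleja-like members Drd3 stood at 504 CPM (420 to 599) in the knockdown-labelled and 470 (380 to 576) in the control library, and Isl1 at 339 and 285. Drd1 was sparse. It had 4 UMIs in 4 of 61 Calleja-like members (15.7 CPM) and 6 UMIs in 6 of 42 (30.0 CPM), and 17 UMIs in 11 of the 26 striatal-like members (63.9 CPM). Folh1, which encodes a folate hydrolase, was found in 25 of 61 and 22 of 42 Calleja-like members at 161 and 275 CPM, but oligodendrocyte-marker nuclei carried it as well. Rxfp1, a relaxin receptor gene, had 4 UMIs in the knockdown-labelled and none in the control library. Other dopamine receptor genes were at or near 0 in Calleja-like members: Drd2 had 1 and 0 UMIs, and Drd4 and Drd5 had none. Drd3 and Isl1 were fixed by the gate and do not support the name Calleja-like, which is kept here as a working name for these subclusters.

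Genes outside the gate marked the Calleja-like members in both libraries. Gpr149 encodes an orphan G protein-coupled receptor and Syt6 a synaptotagmin, a protein of vesicle fusion. Gpr149 stood at 449 CPM (370 to 539) and 625 CPM (521 to 745), with a UMI in 49 of 61 and 34 of 42 nuclei, while all nuclei outside the gate stood at 7.53 and 3.71 CPM. Over single nuclei its lowest, median and highest values were 0, 346 and 1853 CPM in the knockdown-labelled and 0, 613 and 3383 CPM in the control library. Syt6 stood at 657 and 625 CPM against 11.5 and 9.06 outside the gate, and was found in 55 of 61 and 38 of 42 nuclei. Its single-nucleus values ran from 0 over medians of 511 and 556 to 2249 and 2434 CPM. Most nuclei of both libraries were thus high for these genes, with a minority at 0.

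Because the clusters were built from such genes, differences between clusters describe them and are no test. On the log2 scale, with 0.5 UMI added to each sum, the Calleja-like members exceeded all nuclei outside the gate by 5.81 (5.50 to 6.09) and 7.27 (6.92 to 7.61) for Gpr149 and by 5.80 (5.55 to 6.03) and 6.08 (5.77 to 6.37) for Syt6. Over all members, striatal-like and Zic nuclei included, the same differences were 4.40 and 7.29 for Gpr149 and 4.11 and 5.95 for Syt6. Against striatal-like nuclei outside the gate, in the knockdown-labelled library, Calleja-like members were higher by only 1.98 for Gpr149 and 2.32 for Syt6. Of 1576 genes with at least 30 UMIs in the members of each library, 83 (5.27%) were at least 2-fold higher in members than in other nuclei in both libraries, and 24 (1.52%) at least 2-fold lower. The other nuclei were not alike, since oligodendrocyte-marker nuclei made up 15.6% of the knockdown-labelled and 61.1% of the control library. The part of this make-up in the ratios over other nuclei, here and below, was not tested. For the Calleja-like members alone, 142 of 1136 genes (12.5%) were at least 2-fold higher in both libraries and 14 (1.23%) lower.

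The neuropeptide and transcription factor genes shared with striatal neurons followed. Tac1, the precursor gene of substance P, stood at 335 CPM (267 to 414) and 295 CPM (225 to 381) in Calleja-like members, against 9.17 and 3.01 outside the gate. It was found in 38 of 61 and 28 of 42 of them, with single-nucleus medians of 279 and 361 CPM and highest values of 1355 and 1006. Rarb, a retinoic acid receptor gene, stood at 500 and 310 CPM, and Foxp2, a forkhead transcription factor gene, at 752 and 921. In all members, Tac1 was higher than in other nuclei by 3.97 and 6.39, Rarb by 3.85 and 4.33 and Foxp2 by 3.12 and 4.37 on the log2 scale.

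Some genes of the dopamine and cAMP pathway were high in the Calleja-like members. Rgs9, whose product ends G protein signals in striatal neurons, stood at 744 CPM (642 to 858) and 595 CPM (493 to 713), against 43.8 and 21.5 outside the gate, and was found in 60 of 61 and 39 of 42 nuclei. Gnal, the stimulatory G protein alpha subunit of striatal and olfactory neurons, stood at 472 and 655 CPM and Adcy5, the adenylyl cyclase, at 295 and 275. Prkar2b, a regulatory subunit of protein kinase A, stood at 874 and 726 CPM against 51.0 and 22.5. Pkib, a protein kinase inhibitor, stood at 256 and 360 CPM, and Akap5, an anchoring protein for the kinase, at 126 and 165. In all members these 6 genes were higher than in other nuclei in both libraries, from 1.85 for Gnal to 3.54 for Rgs9 on the log2 scale in the knockdown-labelled and from 2.00 for Adcy5 to 5.10 for Pkib in the control library. Other genes of the pathway went the other way in all members: Pde4b, a cAMP phosphodiesterase, differed from other nuclei by -0.39 and -1.91, and in the knockdown-labelled library the adenylyl cyclase genes Adcy1 and Adcy2 differed by -1.28 and -0.57. Pde4b was high in oligodendrocyte-marker nuclei, with levels given below, and their part in its difference was not tested.

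Calleja-like members carried the genes of GABA synthesis. Gad1 stood at 244 and 220 CPM and Gad2 at 264 and 415, and Slc32a1, the vesicular GABA transporter, at 102 and 45.0. The 11 genes listed for GABAergic identity summed to 1476 and 1181 CPM, against 582 and 381 CPM in oligodendrocyte-marker nuclei. Slc17a6, the vesicular glutamate transporter of subcortical neurons, had 1 and 0 UMIs. Slc17a7, its cortical and hippocampal counterpart, stood at 165 CPM (119 to 223) and 45.0 CPM (20.6 to 85.5), and at 169 and 16.9 CPM in oligodendrocyte-marker nuclei of the same libraries, a cell type that should lack it.

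Further genes with the highest values in members were less familiar in this setting. Furin, a proprotein convertase, stood at 213 and 285 CPM in Calleja-like members, and Gulp1, an engulfment adaptor, at 429 and 500. The transporter-family gene Slco5a1 stood at 161 and 160 CPM, the chloride channel-family gene Clic6 at 154 and 225, and the phospholipase-family gene Pld5 at 764 and 605. The noncoding Gm12068 stood at 232 and 210 CPM and Sntb1, a syntrophin, at 248 and 435. Over striatal-like nuclei outside the gate, knockdown-labelled Calleja-like members were higher by 1.58 log2 units for Clic6, 1.61 for Slco5a1 and 1.71 for Gulp1. The differences for Furin, Pld5, Gm12068 and Sntb1 ran from 4.17 to 6.18. In all members each of these 7 genes was over 2 log2 units higher than in other nuclei, from 2.09 for Sntb1 to 3.75 for Gm12068 in the knockdown-labelled and from 3.95 for Furin to 6.35 for Gm12068 in the control library. Among nuclei of the knockdown-labelled library with Y-linked UMIs and no Xist UMI, of which 13 were members and 1 of these Calleja-like, the direction turned for Furin, Gulp1, Slco5a1 and Foxp2.

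**Figure D2:**
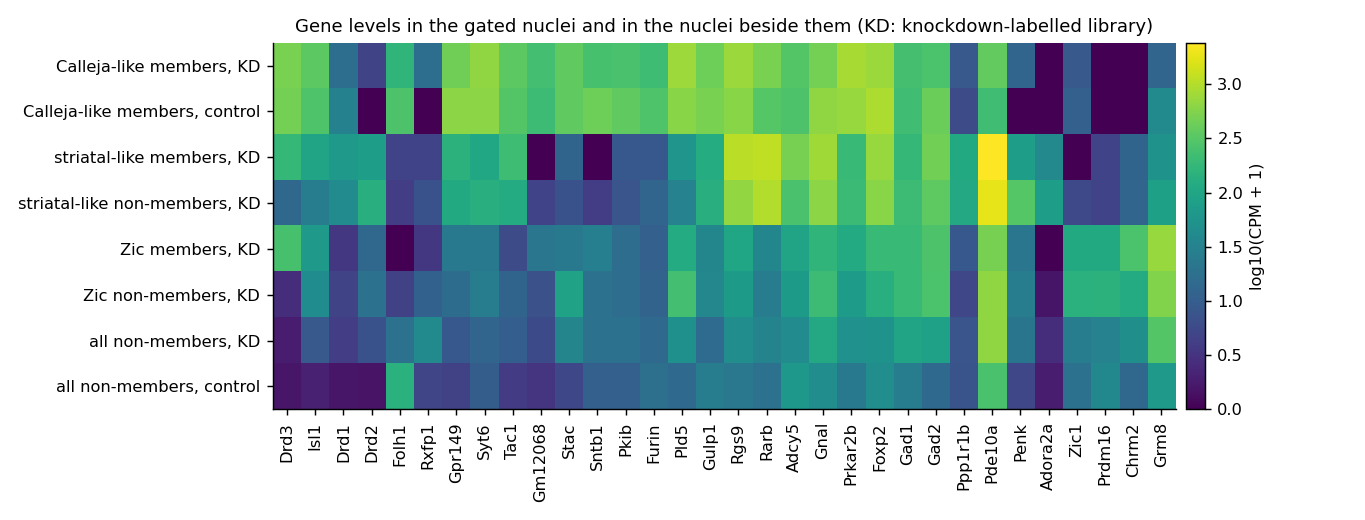
Rows are sets of nuclei, columns are genes, and colour is log10 of CPM plus 1. Both rows of Calleja-like members are bright from Gpr149 to Foxp2 and dark at Adora2a, Prdm16 and Chrm2, the striatal-like rows are brightest at Pde10a and Rarb, and the Zic rows are bright at Zic1, Prdm16, Chrm2 and Grm8.

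Calleja-like members were next set beside the 150 striatal-like nuclei of the knockdown-labelled library that did not pass the gate. The markers of D2-type striatal neurons were nearly missing from the Calleja-like members. Adora2a, an adenosine receptor gene, had 0 UMIs in 61 Calleja-like members and 101 UMIs in the striatal-like nuclei, and was at least 6.57-fold lower against a floor of 3 UMIs. Drd2 had 1 UMI against 170, a log2 difference of -4.47 (-10.36 to -2.55). Penk, the enkephalin precursor, had 3 UMIs against 396, a difference of -4.47 (-6.97 to -3.13), and in the control library it had none in 42 Calleja-like members.

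The D1-type side did not simply take their place. Pdyn, the dynorphin precursor, had 0 UMIs in Calleja-like members of both libraries against 48 in the striatal-like nuclei, which makes it at least 3.12-fold lower in the knockdown-labelled library. Drd1 stood at 15.7 CPM against 41.5, a log2 difference of -1.24 whose interval ran from -3.32 to 0.04. Tac1 was higher by 1.5 (1.10 to 1.89). Of 17 genes listed for striatal projection neurons 16 were measured, of which 1, Tac1, was at least 2-fold higher and 10 were at least 2-fold lower, with a median log2 difference of -2.86. A gene was tested with at least 30 UMIs in either set. The sets summed to 254051 and 1301853 UMIs, so a tested gene could have few UMIs in the Calleja-like members. Counts of lower genes, here and in the lists below, can therefore include counting error. Over all 6792 genes tested, 373 (5.49%) were higher and 733 (10.8%) lower, with a median of 0.01. With TMM scaling, where the log2 ratio of the scaling factors, 0.20, was subtracted from all values and so lowered them, those counts became 234 and 1006.

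Inside the cAMP pathway the difference lay in some members only. Ppp1r1b, which encodes the phosphatase inhibitor DARPP-32, had 2 UMIs in Calleja-like members (7.87 CPM) against 140 (108 CPM), a log2 difference of -3.46 (-6.83 to -1.89). Pde10a, the phosphodiesterase of striatal projection neurons, stood at 374 CPM (303 to 457) against 1798 CPM (1726 to 1873), a difference of -2.26 (-2.58 to -1.97). Pde1c and Pde1b, calcium-dependent phosphodiesterases, differed by -4.88 and -1.97. Their relative Pde1a was higher by 2.38 (2.20 to 2.55), at 2263 CPM against 436, and was found in all 61 and all 42 Calleja-like members. Prkar2b was higher by 2.11 (1.84 to 2.37). Rgs9 and Adcy5 differed by 0.13 (-0.11 to 0.35) and 0.21 (-0.18 to 0.56), intervals that include 0. Of 35 genes listed for dopamine and cAMP signalling 31 were measured, of which 2 were at least 2-fold higher and 12 at least 2-fold lower, with a median of -0.60.

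Transcription factors were split. Foxp1 differed by -1.30 (-1.67 to -0.97) and Rarb by -0.95 (-1.24 to -0.70), while Bcl11b, the striatal factor Ctip2, was higher by 1.26 (0.98 to 1.52) and Foxp2 by 0.31 (0.07 to 0.54). The GABAergic genes were close in both sets: Gad2 differed by -0.39 (-0.79 to -0.02), and of 6 measured genes of that list only Dlx6os1 was at least 2-fold higher and none was lower, with a median of 0.21.

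Receptor and channel genes differed in both directions, beside shares over all genes tested of 5.49% higher and 10.8% lower. Grik1, a kainate receptor subunit, stood at 1614 CPM against 49.2 and was higher by 5.03 (4.65 to 5.44), and Grin3a, an NMDA receptor subunit, by 3.33 (2.77 to 3.93). These were 2 of 15 measured ionotropic glutamate receptor genes, of which 7 were at least 2-fold lower, Gria4 among them, with a median of -0.76. Npy1r, a neuropeptide Y receptor, was higher by 2.56, Htr4, a serotonin receptor, by 1.68 and Chrm3, a muscarinic receptor, by 1.15 (0.95 with TMM scaling), whereas the serotonin receptor Htr1f differed by -4.65 (-8.02 to -3.10). Of 28 measured potassium channel genes 7 were at least 2-fold higher, with Kcnb2 at 945 CPM against 243 and Kcnh5 at 232 against 57.6, and 6 were lower. Synaptic adhesion genes leaned to the lower side, with 2 of 28 measured at least 2-fold higher, 12 lower and a median of -0.89. Lrrtm3 and Cntn5 were among the lower ones, at 177 CPM against 643 and 150 against 680.

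The highest differences from striatal-like nuclei were in genes nearly silent in the latter. Sntb1 and Frmpd1 were higher by 6.18 and 6.19, Neb, the giant muscle protein nebulin, by 6.01 (4.34 to 9.42), and Stac, an adaptor of calcium channels, by 5.79 (4.83 to 7.12). Folh1 was higher by 5.56, Pkib by 5.14, Fstl1, a secreted follistatin-like protein, by 5.11, and Furin by 4.17. Sgcd, a sarcoglycan, stood at 5436 CPM (5153 to 5730) and 6239 CPM (5898 to 6596) in Calleja-like members against 404, and had a UMI in every one of the 103 nuclei. Its lowest single-nucleus values, 607 and 841 CPM, were above the striatal-like median of 261 CPM. Col11a1, a fibrillar collagen chain, stood at 1330 CPM against 122. In Calleja-like members of the control library Neb stood at 235 CPM, Stac at 355, Fstl1 at 270, Frmpd1 at 195 and Col11a1 at 966. These levels were not set beside striatal-like nuclei of that library, of which only 10 lay outside the gate.

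**Figure D3:**
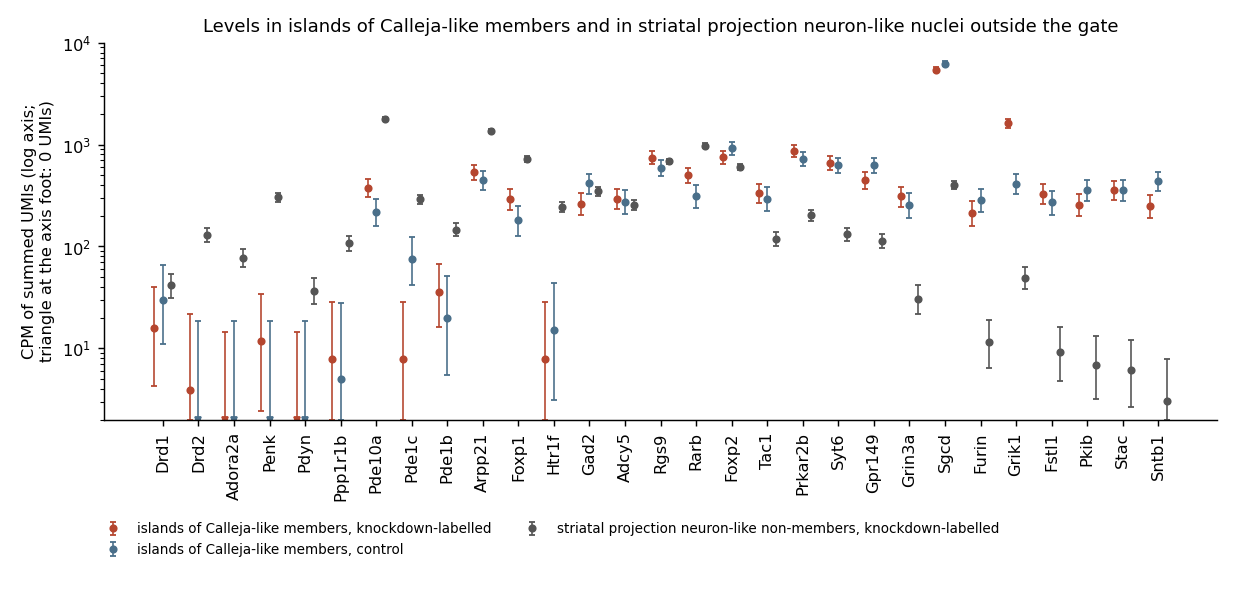
Points are CPM of summed UMIs on a log axis with exact 95% Poisson intervals, for Calleja-like members of the knockdown-labelled (red) and control (blue) libraries and for striatal-like nuclei outside the gate (grey), and triangles at the foot of the axis mark 0 UMIs. On the left, from Drd2 to Htr1f, grey lies above both colours. Around Adcy5 and Rgs9 the 3 sets lie together, and from Tac1 rightward both colours lie above grey.

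The 34 members of the Zic cluster differed from the Calleja-like members by most of these genes. Compared with them, Calleja-like members were higher by 5.75 for Tac1, 4.79 for Syt6, 4.25 for Furin, 4.24 for Gpr149, 3.79 for Rarb and 2.88 for Rgs9 on the log2 scale. Chrm2, the M2 muscarinic receptor gene, had 107 UMIs in Zic members and none in Calleja-like members, at least 22.7-fold lower. Prdm16 was at least 9.54-fold and Zic4 at least 8.27-fold lower in the latter. Grm8, a metabotropic glutamate receptor, differed by -5.72 (-8.22 to -4.38) and Zfhx3, a zinc finger homeobox factor, by -4.84 (-6.41 to -3.82). Over all 2998 genes tested, 239 (7.97%) were at least 2-fold higher in Calleja-like members and 434 (14.5%) at least 2-fold lower.

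Within the Zic cluster the members were also set beside the nuclei that did not pass the gate. Genes were tested with at least 30 UMIs in either set, and the sets summed to 399578 and 10842278 UMIs. A tested gene could therefore have few or no UMIs in the members, where counting error alone can give a 2-fold difference. Of 14266 such genes, 753 (5.28%) were at least 2-fold higher in the 34 members and 1301 (9.12%) lower. These counts are not read as a property of the members. Zic1 stood at 113 CPM (82.1 to 151) in members and 144 CPM (137 to 151) in the other 1211 nuclei, and Gad2 at 270 and 264. Tcf7l2, a thalamic marker here, stood at 130 CPM against 27.0, but its 52 UMIs lay in only 7 of the 34 nuclei. Igfbpl1, a gene of young interneurons, stood at 12.5 CPM against 53.1.

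The 26 striatal-like members had more Tac1 and less Penk than the other nuclei of their own clusters. They were chosen by Drd3 and Isl1, and the part of that choice in these levels was not tested. Tac1 stood at 214 CPM (162 to 278) in them against 118 CPM (100 to 139) in striatal-like nuclei outside the gate, and Penk at 75.2 CPM (45.9 to 116) against 304 CPM (275 to 336). Drd1 stood at 63.9 (37.2 to 102) against 41.5 CPM (31.2 to 54.1) and Drd2 at 75.2 (45.9 to 116) against 131 CPM (112 to 152). The Drd1 intervals overlap, and the 20 Drd2 UMIs came from 3 of the 26 nuclei. Sntg2, a syntrophin, stood at 162 CPM against 32.3, and Alk, a receptor tyrosine kinase, at 11.3 against 139. Of 6773 genes, 52 (0.768%) were at least 2-fold higher in striatal-like members and 370 (5.46%) lower. These genes had at least 30 UMIs in either set, which summed to 265983 and 1301853 UMIs. The limit given for the Zic cluster counts therefore holds here.

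The Calleja-like members themselves fell into 3 subclusters. The largest held 40 members of the knockdown-labelled and 25 of the control library, another, called the second, held 13 and 8, and the last held 8 and 9. Stac stood at 608 and 630 CPM in the largest subcluster, at 18.2 and 56.2 in the second and at 84.4 and 152 in the last. Syt6 stood at 958 and 956 CPM in the largest, against 273 and 253 in the second and 304 and 388 in the last. Pde10a ran the other way, with 243 and 109 CPM in the largest and 782 and 674 in the second. Baiap3, a gene of vesicle release, stood at 21.5 and 43.4 CPM in the largest and at 145 and 365 in the second. These patterns had the same order in both libraries. In each of the 3 subclusters the only listed Calleja markers among the 10 leading genes were Drd3 and Isl1. The second subcluster had as many striatal genes as Calleja genes there. The last subcluster carried myelin genes and doublets: 10 of its 25 nuclei were marked as doublets, and Mbp, the myelin basic protein gene, stood at 591 and 2037 CPM.

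**Figure D4:**
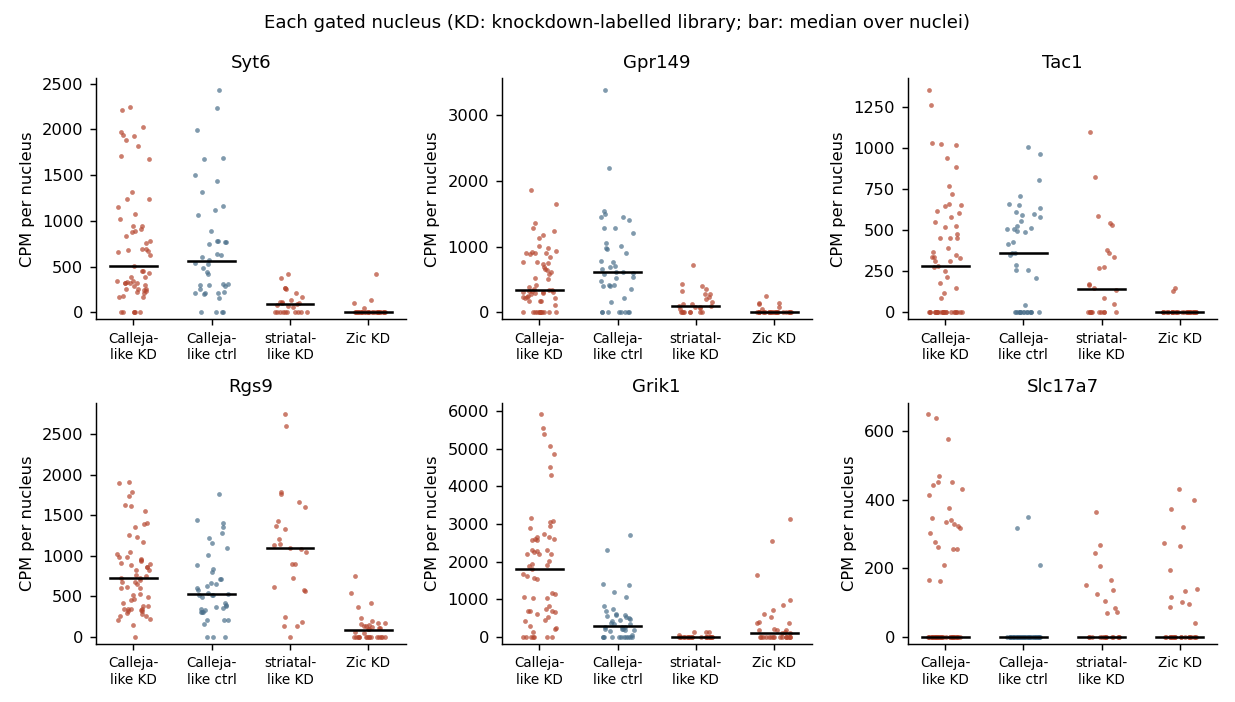
Each point is 1 gated nucleus and its CPM, the bar is the median over nuclei, and the sets are Calleja-like members of the knockdown-labelled (KD) and control (ctrl) libraries and the striatal-like and Zic members of the knockdown-labelled library. Syt6, Gpr149 and Tac1 are high in the Calleja-like members of both libraries, with the Gpr149 median lower in the knockdown-labelled one, and near 0 in Zic members, Rgs9 is also high in striatal-like members, Grik1 is higher in the knockdown-labelled Calleja-like nuclei, and Slc17a7 is above 0 in 24 of 61 of them and in 3 of 42 control ones, with medians of 0.

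The targeted gene came first in the comparison of the libraries. Bcas2 had 40 UMIs in the 130 members of the knockdown-labelled (38.4 CPM, 27.5 to 52.3) and 7 UMIs in the 47 members of the control library (29.0 CPM, 11.6 to 59.7). In Calleja-like members it had 14 UMIs (55.1 CPM, 30.1 to 92.5) and 6 UMIs (30.0 CPM, 11.0 to 65.3). In nuclei outside the gate it stood at 40.6 and 30.7 CPM. Bcas2 was thus no lower in the knockdown-labelled library in any of these sets, and the intervals of the members overlap. The sources used here do not say which part of the gene is floxed, so 3' tags may come from outside it.

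Over all members, 549 of 4990 genes with at least 50 UMIs (11.0%) were at least 2-fold higher in the knockdown-labelled library, and 301 (6.03%) were lower by that much. With TMM scaling, where the log2 ratio of the scaling factors, -0.15, was subtracted from all values and so raised them, those counts were 719 and 211. The make-up of the members differed between the libraries in the same comparison. Fstl5, a follistatin-like gene, had 204 UMIs in the knockdown-labelled members and none in the control members, at least 15.8-fold higher. Rasgef1b, Cpne7, Chrm2, Ptpn3 and Ano1 also had no UMI in the control members and were at least 9.83-fold, 9.52-fold, 9.21-fold, 8.12-fold and 5.49-fold higher. In Calleja-like members these genes were low in both libraries: Ptpn3 had 9 UMIs against 0, Fstl5, Rasgef1b and Cpne7 had 7 each against 0, Ano1 had 1 against 0, and Chrm2 had none in either. The Zic and striatal-like members, nearly all from the knockdown-labelled library, lay in only 1 side of this comparison.

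At the lower end stood myelin genes. The log2 difference was -3.61 (-4.50 to -2.84) for Prr5l, -3.54 for Hapln2, -3.51 (-4.22 to -2.87) for Mag and -3.26 for Mog. All 8 genes of the oligodendrocyte list were at least 2-fold lower, with a median of -3.19 against 0.01 over all genes tested. Their summed level was 460 CPM in the knockdown-labelled members and 3907 in the control members. Outside the gate it was 1225 and 12086 CPM, and in striatal-like nuclei outside the gate 354 and 1378 CPM.

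The 61 and 42 Calleja-like members were then compared alone. Their make-up by subcluster still differed: the last subcluster, with its marked doublets, gave 59230 of 254051 UMIs in the knockdown-labelled library against 72180 of 199857 in the control library. Of 1774 genes tested, 54 (3.04%) were at least 2-fold higher in the knockdown-labelled library, and 54 (3.04%) were lower by that much. Several genes that marked these nuclei had intervals that include 0: the log2 difference was 0.07 (-0.27 to 0.42) for Syt6, 0.01 (-0.45 to 0.48) for Stac, 0.18 (-0.32 to 0.69) for Tac1, 0.10 (-0.42 to 0.63) for Adcy5 and 0.32 (-0.02 to 0.67) for Rgs9. Gpr149 and Gad2 differed by -0.48 (-0.86 to -0.10) and -0.65 (-1.14 to -0.17), and Rarb by 0.68 (0.24 to 1.15). Across the 1774 genes the log levels of the 2 libraries had a Pearson r of 0.866, a description over genes that share 2 libraries and are not independent.

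The myelin genes remained on the lower side in this narrower comparison. All 8 of the oligodendrocyte list were at least 2-fold lower, with a median of -2.25 against -0.02 over all genes tested, from Mag at -3.07 (-4.26 to -2.17) and Prr5l at -2.33 to Mbp at -2.21 and Mog at -2.15. The summed level per nucleus was 0 at the lowest, 344 at the median and 6348 CPM at the highest in the knockdown-labelled library, and 416, 2064 and 15205 CPM in the control library. The ranges overlapped, and no control nucleus was at 0. The last subcluster held 130 of the 217 UMIs of the list in the first library and 575 of 805 in the second. Within the largest subcluster, which held no doublet-marked nucleus, Mbp stood at 71.5 CPM (34.3 to 132) and 195 CPM (116 to 309), and the median of the list was -1.92. With doublet-marked nuclei removed throughout, the median of the list was -3.46. The summed myelin level outside the gate, given above, moved the same way between the libraries, and its part in these levels was not tested.

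Grik1 was the widest of the differences carried by many UMIs. It stood at 1614 CPM (1461 to 1778) in the knockdown-labelled Calleja-like members and at 410 CPM (326 to 509) in the control ones, higher by 1.97 (1.63 to 2.34). It was found in 54 of 61 and 31 of 42 nuclei, with single-nucleus values of 0, 1807 and 5932 CPM at the lowest, median and highest in the first library and 0, 297 and 2705 CPM in the second. The median of the first was thus within the range of the second, and the difference held in the largest subcluster, at 2410 CPM (2160 to 2682) against 576 CPM (431 to 753). In the second subcluster Grik1 stood at 273 and 281 CPM, in the last at 979 and 263. In oligodendrocyte-marker nuclei, which carried it at like levels in both libraries, it stood at 313 and 353 CPM. Among nuclei with Xist and no Y-linked UMI, the difference was 1.21 on the log2 scale.

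Further genes higher in the knockdown-labelled Calleja-like members are given by list, beside the 3.04% of all genes tested that were higher and the 3.04% that were lower. The GABA-A receptor subunits Gabrg3 and Gabrb2 were higher by 2.09 (1.12 to 3.36) and 1.17 (0.59 to 1.80), 2 of 5 measured genes of that list, of which none was 2-fold lower. Of 12 measured ionotropic glutamate receptor genes 3 stood at least 2-fold higher, with none lower: Grik1, Grid1 by 1.72 (0.87 to 2.76) and Gria3 by 1.43 (0.49 to 2.59). Of 20 measured synaptic adhesion genes 5 stood at least 2-fold higher, with none lower, Ntm by 1.56 (0.96 to 2.23) and Cntn5 by 1.28 (0.35 to 2.39) among them. The medians of these lists were 0.68, 0.31 and 0.09.

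Olfm1, an olfactomedin of the synapse, was higher by 2.40 (1.5 to 3.58) and Nrg3, a neuregulin, by 1.76 (1.31 to 2.25), with a UMI of Nrg3 in 38 of 61 nuclei against 9 of 42. Esrrg, an orphan nuclear receptor gene, was higher by 1.55 (0.83 to 2.39) and the noncoding Dlx6os1 by 1.42 (0.83 to 2.09). Dlx6os1 was no longer 2-fold higher among nuclei with Xist and no Y-linked UMI, at 0.91. Slc17a7, which GABAergic nuclei should lack, was higher by 1.82 (0.82 to 3.10).

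These neuronal genes were also higher in the knockdown-labelled library in nuclei that should hold little of them. Slc17a7 stood at 169 and 16.9 CPM in oligodendrocyte-marker nuclei, Olfm1 at 267 and 56.0, Nrg3 at 344 and 66.8, Gabrg3 at 45.7 and 6.61, Gabrb2 at 43.6 and 6.91, Gria3 at 124 and 16.5, Grid1 at 57.9 and 16.6, Ntm at 115 and 41.1 and Cntn5 at 67.2 and 12.1. Esrrg and Dlx6os1 were low there, at 15.4 and 3.43 and at 14.8 and 2.17 CPM. Grik1 was the exception among the genes named here, as given above. The part of free RNA in the values of the Calleja-like members was not tested. Ntm was no longer 2-fold higher in the largest subcluster, at 0.68, nor was Gabrb2 when every nucleus of the Calleja-like subclusters was taken, at 0.88.

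Lower in the knockdown-labelled Calleja-like members, beside the myelin genes, were Pde4b, Grm3, a metabotropic glutamate receptor, and Pbx3, a homeobox factor. Their log2 differences were -1.72 (-2.12 to -1.35), -1.58 (-2.58 to -0.70) and -1.39 (-1.87 to -0.93). Pde4b was found in 13 of 61 nuclei against 28 of 42, and Grm3 in 7 against 18. Both were high in oligodendrocyte-marker nuclei, Pde4b at 5026 and 7077 CPM and Grm3 at 973 and 1409. Pbx3 was not, at 53.6 and 64.6 CPM. It was found in 24 of 61 Calleja-like members against 34 of 42, with medians of 0 and 424 CPM over single nuclei and highest values of 2249 and 5040. Among nuclei with Xist and no Y-linked UMI, Pde4b differed by only -0.43. The Pbx3 difference turned to 1.44 among nuclei with Y-linked UMIs and no Xist, where the knockdown-labelled side was a single nucleus. Pde4b was the only gene at least 2-fold apart among 18 measured of the dopamine and cAMP list, whose median was 0.09.

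Lists tied to the targeted gene were close to the middle of all genes. Of 32 genes of the Prp19 complex and spliceosome only 5 had 50 UMIs over the Calleja-like members, and none of these was 2-fold apart, with a median of 0.11, where 3.04% of all genes tested were higher and 3.04% lower. Of 33 splicing regulators 20 were measured, none 2-fold apart, with a median of 0.09. Of 38 genes of BDNF-TrkB signalling 9 were measured, none 2-fold apart, with a median of 0.15. With so few genes measured, counts of 0 are near that share and say nothing particular of these lists.

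**Figure D5:**
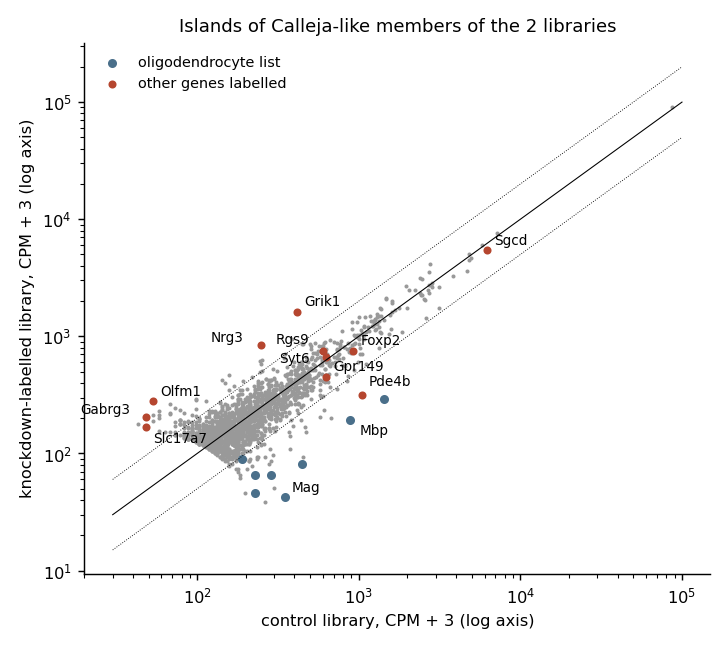
Each point is a gene, by its CPM plus 3 in Calleja-like members of the control library (x axis) and the knockdown-labelled library (y axis), both log axes, with equality as the solid line and 2-fold as the dotted lines. Most of the 1774 genes lie between the dotted lines, the oligodendrocyte genes (blue) lie below, and Grik1, Nrg3, Olfm1, Gabrg3 and Slc17a7 lie above.

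Sex-linked transcripts divided the members unevenly. In the knockdown-labelled library 84 of the 130 members had Xist and no Y-linked UMI, 13 had Y-linked UMIs and no Xist, and 33 had both, while 29.4% of all its kept nuclei had only Xist and 37.6% only Y-linked UMIs. Of its Calleja-like members 45 of 61 had only Xist and 1 only Y-linked UMIs, and of its Zic members 15 and 11 of 34. In the control library 24 of the 42 Calleja-like members had only Xist and 8 only Y-linked UMIs. The gate took 2.13% (1.70 to 2.63) of nuclei with only Xist and 0.257% (0.137 to 0.439) of nuclei with only Y-linked UMIs in the knockdown-labelled library, and 0.492% (0.322 to 0.720) and 0.255% (0.117 to 0.483) in the control library. Both libraries held nuclei of both kinds. Doublets were marked in 13 and 5 members, 10.0% and 10.6%, beside 7.79% and 10.6% of all kept nuclei.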

How the data were processed

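The deposited files hold UMI counts for each gene and barcode, unnormalized, and per the file headers come from Cell Ranger 9.0.1. Per the submitters' processing notes, bcl2fastq 5.0.1, Seurat 4.1.0 and GRCm39 were also used. The sources used here do not state how barcodes were called or whether introns were counted. Kept barcodes had 500 or more genes, 800 or more UMIs and less than 5% of UMIs from mitochondrial genes. Python 3.11.15 with scanpy 1.11.5, scipy 1.17.1 and leidenalg 0.10.2 was used, and edgeR 4.0.16 in R 4.3.3 for TMM scaling only. Nuclei were scaled to 10000 UMIs and clustered from 2000 variable genes, 30 components and 15 neighbours at resolution 1, without Drd3, Isl1, Drd1, Bcas2, sex-linked or mitochondrial genes. Clusters were named from 110 markers of 21 classes. The split used 1000 genes, 15 components and resolution 0.3. Scrublet marked doublets, which were kept. Its threshold failed in the control library (0.016% marked), where the top scores at 0.8% per 1000 barcodes were marked instead.

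UMIs were summed over nuclei and divided by the set's total (1040956 and 241624 UMIs in the members, 254051 and 199857 in the Calleja-like members). Levels carry exact Poisson, shares Clopper-Pearson and ratios conditional binomial intervals at 95%. Comparisons between libraries took genes with at least 50 UMIs over both. Members against all other nuclei took genes with at least 30 UMIs in the members of each library. Comparisons of 2 sets within 1 library took genes with at least 30 UMIs in either set. A gene was counted at a 2-fold difference. Named genes were the marker lists, the 25 genes most higher in members in both libraries, and listed genes by UMIs or a 2-fold difference. The 10 highest and 10 lowest ratios of members over striatal-like nuclei, and of members between libraries, were also named. Alk, Baiap3, Bcl11b, Col11a1, Dlx1, Foxp1, Fstl1, Igfbpl1, Neb, Nrg3, Olfm1, Sgcd, Slc32a1, Sntg2 and Tcf7l2 were named after their values were seen. Gates, members and lists were chosen with earlier results of these data known. Single values of some listed genes are not reported here. The ratio code was tested on simulated data. Since 1 library stands for each group, no test between groups was possible.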

Additional observations from a re-analysis of the deposited data

Results flagged for a closer look

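In 7 genes the computed difference of members from other nuclei had opposite signs in the 2 libraries, by more than 2-fold each way. With 1 library per group this was not tested. Oligodendrocyte-marker nuclei made up 61.1% of the control and 15.6% of the knockdown-labelled library, and their part in these differences was not tested either. Chrm2, Zic4 and Ano1 had no UMI in the control members. Their control values below therefore depend on the fraction of a UMI added to each sum and are not measured decreases. The log2 difference of members over other nuclei, control library first and knockdown-labelled library second, was -2.65 and 1.28 for Chrm2, -2.59 and 1.48 for Zic4, -2.10 and 1.55 for Zfhx3, -1.49 and 1.44 for Zfp423, a zinc finger gene, -1.47 and 1.26 for Tcf7l2, and -1.19 and 1.79 for Ano1, a chloride channel. Chrm3 ran the other way, at 2.18 and -1.08. In the 34 Zic members, all from the knockdown-labelled library, these genes had 107 UMIs for Chrm2, 39 for Zic4, 293 for Zfhx3, 62 for Zfp423, 52 for Tcf7l2 and 69 for Ano1. In the 61 and 42 Calleja-like members the same genes had 0 and 0 UMIs for Chrm2 and for Zic4, 6 and 7 for Zfhx3, 3 and 0 for Zfp423, 5 and 2 for Tcf7l2, and 1 and 0 for Ano1. Chrm3 had 43 and 47 UMIs there, 169 and 235 CPM.

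Among barcodes that the filters on genes, UMIs and mitochondrial share removed, 1 of the knockdown-labelled library passed the Drd3 and Isl1 gate, and none of the control library did. It belongs to no comparison above.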

How the results depend on the processing

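No paired analysis was possible because each group is 1 library. No alternative left out the oligodendrocyte-marker nuclei, 15.6% of the knockdown-labelled and 61.1% of the control library. The order of the shares among the remaining nuclei was therefore not tested. The share of members (main values 0.968% and 0.375%, knockdown-labelled library first) kept its order under every alternative run, and the gap nearly closed among nuclei with only Y-linked UMIs, at 0.257% and 0.255%. It was 0.655% and 0.255% with Drd3 of at least 2 UMIs only, 0.640% with Drd3 and Isl1 for the first library, 1.5% and 0.575% with any Drd3 UMI, 0.785% with a looser filter, 2.13% among nuclei with only Xist, 0.108% and 0.0721% when thinned to 1000 UMIs, 0.454% for Calleja-like members, 0.298% and 0.200% for the largest subcluster, and 0.685% for every Calleja-like nucleus (these last 2 chosen after seeing the data). The counts of genes at least 2-fold apart moved more. Between libraries (549 higher, 301 lower) they were 294 and 168 with Drd3 and Isl1, 51 and 30 thinned, 54 and 54 for Calleja-like members, 110 and 64 with only Y-linked UMIs, 361 and 178 with only Xist, 118 and 80 for every Calleja-like nucleus, 19 and 14 for the largest subcluster, 1081 and 763 at a minimum of 20 UMIs, 285 and 126 at 100 UMIs and 1096 and 833 at 1.5-fold. The lower count was 471 with any Drd3 UMI. Genes higher in members in both libraries (83) numbered 41 thinned, 142 for Calleja-like members, 2 with only Y-linked UMIs, 165 for every Calleja-like nucleus, 32 at 100 UMIs, 165 at 1.5-fold and 145 by mean CPM over nuclei. In Calleja-like members (54 higher, 54 lower between libraries) they were 6 and 2 thinned, 5 and 13 with only Y-linked UMIs, 19 and 14 for the largest subcluster, 243 and 268 at 20 UMIs, 16 and 17 at 100 UMIs and 195 and 200 at 1.5-fold. With only Xist 20 were lower, and with every Calleja-like nucleus 118 were higher. Against striatal-like nuclei (373 higher, 733 lower) they were 65 and 166 thinned, 1 and 8 with only Y-linked UMIs, 118 and 310 at 100 UMIs and 1102 and 1420 at 1.5-fold. The higher count was 589 at 20 UMIs and 234 with TMM scaling, and the lower count 1131 for the largest subcluster. Fewer nuclei, UMIs or genes entered in the thinned, sex-linked, subcluster and 100-UMI alternatives. For the others the cause was not tested.

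Of 1637 recomputed single-gene values 1291 stayed within the counting interval, 341 moved and 5 reversed, and of 210 list medians 197 stayed, 12 moved and 1 reversed. All reversals were among nuclei with only Y-linked UMIs: Foxp2 -0.042, Furin -0.12, Gulp1 -1.09 and Slco5a1 -0.69 in members over other nuclei, Pbx3 1.44 between libraries, and the striatal list median 1.61 against striatal-like nuclei. There the knockdown-labelled library had 1 Calleja-like member. Intervals cover counting error only, and 1 library per group leaves library and group inseparable.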
